A study of Solanum lycopersicum with 6 samples.

Results

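MYB proteins are plant transcription factors that bind DNA through repeats of a helix-turn-helix fold, and the annotation of the tomato genome lists them in large numbers. The MYB genes were taken as every row of the deposited table whose description holds the word "myb" in any case. Of 222 such rows, only MYB12 (Solyc01g079620.3), a regulator of flavonol synthesis, was left out by the selection. The further exclusions for "myc" or "bHLH" in the description and for the circadian pathway removed 0 rows. This gave 221 MYB genes of 36224 rows in all. The selection went by words and used no measured value. It therefore includes 3 genes described as target of Myb protein 1, which are vesicle-sorting proteins and not MYB factors, and it misses MYB-type proteins described in other words. A further 28 rows have looser names, such as myb-like protein X, and whether each is a MYB factor was not checked.

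RNA was sequenced from the fruit wall (pericarp) of tomato, cultivar Ailsa Craig, at 37 days after anthesis. One group was wild type (WT, 3 libraries) and the other transgenic, in the same background and labelled JMJ6-OE (3 libraries), in which the histone demethylase SlJMJ6 is overexpressed. The promoter of the transgene, the number of independent lines behind the libraries and whether libraries came from separate plants are not stated in the labels, so p-values measure only the spread between these libraries. Libraries held 28539410 to 36487547 counts, and 20143 genes had enough counts to be tested.

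Fruit markers were present in every library, from 22.4 to 61.1 CPM (counts scaled to library size) in WT and 293 to 582 CPM in JMJ6-OE for the ripening regulator RIN. A difference in ripening stage at the same fruit age and a response to the demethylase cannot be told apart in this design. No row carries the name JMJ6. A candidate, annotated only as a putative lysine-specific demethylase of the JMJ16 type (Solyc06g008490.3, an uncertain match), stood at 23.5 to 27.0 CPM in WT and 31.5 to 41.3 CPM in JMJ6-OE, a log2 fold change of 0.54 ± 0.12 (SE, adjusted p = 0.014). In the seed marker list 10 of 28 rows were at 0. Its summed level was 10.4 to 14.6 CPM in WT and 31.9 to 69.2 CPM in JMJ6-OE, and 6.0 to 7.22 and 5.91 to 7.23 CPM without 1 oleosin row (Solyc06g060840.1). The part of seed RNA in the MYB results was not tested. JMJ6-OE replicate 1 lay nearest to WT among the JMJ6-OE libraries for 80.9% of all genes called higher and 57.2% of all genes called lower. The same was true of 6 of the 6 MYB genes called higher and 13 of the 24 called lower.

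The classes of MYB proteins differ in their number of repeats and in what they are known for. R2R3 proteins, the class that expanded most in plants, steer phenylpropanoid and flavonoid synthesis, epidermal cell fate, secondary walls and stress responses, and some act as repressors. Proteins of the MYB1R1 type carry a lone repeat and have been linked to sugar responses and cell expansion. The GARP/MYB-CC group includes regulators of phosphate and nitrate responses, and 3R-MYB proteins control mitotic genes.

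Most MYB genes had no counts, or too few to test, in these pericarp libraries. Of the 221 genes, 108 had 0 counts in all 6 libraries and 30 had counts too low to test, which left 83 (37.6%) tested, against 55.6% of all rows. For the table as a whole 30.1% of rows were at 0, against 48.9% of the MYB rows. Between 89 and 97 MYB genes had counts in any 1 library. Of the 134 R2R3-type genes, 76 were at 0, among them MYB46 (Solyc01g087130.3) and MYB83 (Solyc11g065840.2), which in Arabidopsis switch on secondary wall formation. All 3 genes with the symbol MYB98 and all 3 with MYB93 were at 0, as were 8 of the 9 with MYB73. A count of 0 is not taken here as silence. A myb-like protein X row (Solyc12g098465.1) had 359, 0 and 335 counts in WT and 0, 0 and 340 in JMJ6-OE. How reads shared by genes of like sequence were counted is not stated.

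More MYB genes were called lower than higher in JMJ6-OE, and most of those tested were not called. Under the quasi-likelihood test of edgeR, with p-values adjusted by Benjamini-Hochberg over all tested genes and a threshold of 0.05, 24 of 83 tested MYB genes were lower in JMJ6-OE and 6 were higher, while 53 did not pass. The 83 include the 3 genes described as target of Myb protein 1, of which 1 was called higher, and 80 remain without them. Of all 20143 tested genes, 34.3% were called, 16.8% lower and 17.5% higher, against 36.1%, 28.9% and 7.23% of the tested MYB genes. A decrease of at least 2-fold was called for 14 of the 83 MYB genes (16.9%), where 8.97% of all tested genes had such a call. An increase of at least 2-fold was called for 1 (1.20%), where 5.77% of all tested genes had one. The median log2 fold change of the tested MYB genes was -0.41, beside -0.012 for all tested genes. It was -0.26 with genes kept only at 1 CPM or more in 3 libraries, -0.26 without WT replicate 2 and -0.29 without JMJ6-OE replicate 1. WT and JMJ6-OE libraries were fully separated in 42 of the 83 genes (50.6%), near the 51.4% of all tested genes. A lower level in bulk tissue can stand for fewer cells of a type or for less RNA per cell, which cannot be told apart here.

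**Figure D1:**
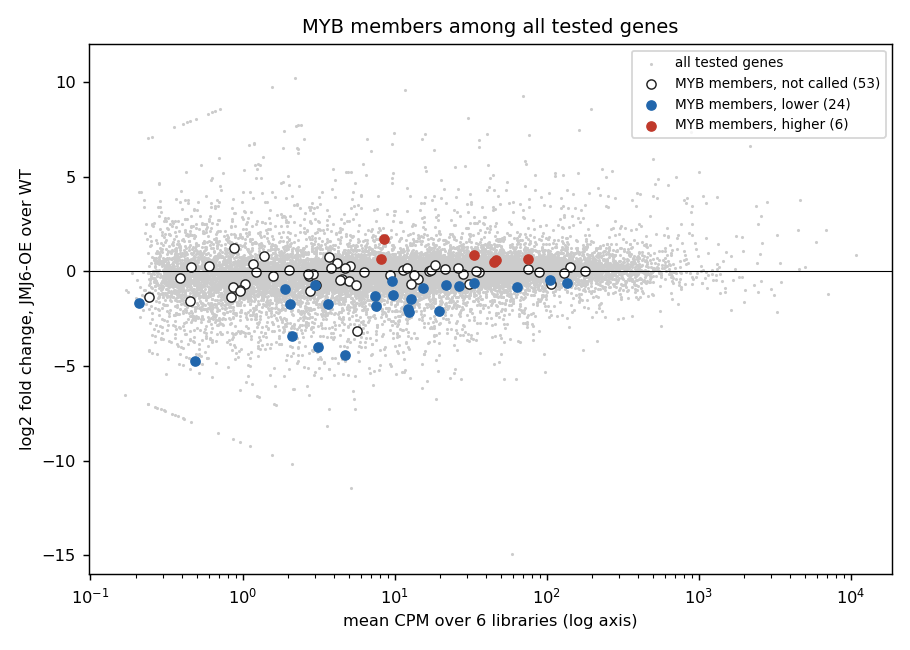
Log2 fold change of JMJ6-OE over WT (vertical axis) against mean CPM over 6 libraries (horizontal, log axis) for 20143 tested genes in grey and the 83 tested MYB genes as large points. Of the MYB genes, 24 (blue) were called lower, 6 (red) higher and 53 (open) were not called, and the blue points reach further from 0 than the red ones.

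Among other transcription factor families taken by the same kind of word search, 24 of 52 tested WRKY genes were lower (46.15%) and 6 higher (11.5%). Of 60 tested bHLH genes, 18 were lower (30%) and 8 higher (13.3%). The shares were 28.9% and 7.23% for the MYB genes and 16.8% and 17.5% for all tested genes. More lower than higher calls were thus not particular to MYB genes. These counts are given side by side only, since the difference between families was not tested. Summed over the 221 MYB genes, WT reached 1973, 1985 and 1976 CPM by library, and JMJ6-OE 1753, 1674 and 1712 CPM. The WT libraries lay above all JMJ6-OE libraries in this sum. It includes the 3 genes described as target of Myb protein 1, which are not MYB factors. Their mean levels were 132, 72.2 and 37.0 CPM in WT and 155, 79.6 and 56.6 CPM in JMJ6-OE. For the R2R3-type genes the sum was 420.1, 502 and 471.8 CPM in WT and 331.5, 306.6 and 281.1 CPM in JMJ6-OE.

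Classes were assigned from the words of the description and the symbol. Of all tested genes, 16.8% were called lower and 17.5% higher. Of 35 tested R2R3-type genes, 17 were lower (48.6%), 1 was higher (2.86%) and 17 were not called, with a median log2 fold change of -0.91. Of 8 tested MYB1R1-type genes, 3 were lower (37.5%) and none higher (median -0.71). Of 13 tested GARP/MYB-CC genes, 3 were lower (23.1%) and 2 higher (15.4%), near the shares of all tested genes (median -0.14). Of 4 tested 3R-MYB genes, none was called, with log2 fold changes from -0.53 to 0.28. The lowest belongs to Solyc08g080580.3, placed here by its symbol MYB3R1 although it is described as MYB28-like. Of 4 tested genes for L10-interacting MYB proteins none was called. So few genes say little beside the 34.3% called of all tested genes. The 14 tested genes with looser names, such as myb-like protein X, had a median of 0.029, with 1 lower and 1 higher (7.14% each). Differences between classes were not tested.

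**Figure D2:**
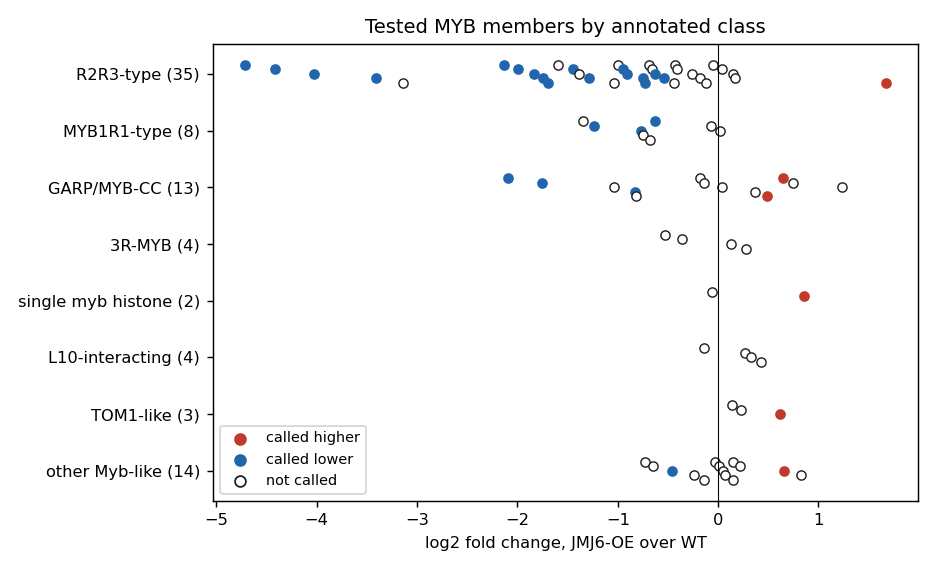
Log2 fold change of JMJ6-OE over WT (horizontal axis) for the 83 tested MYB genes, 1 point per gene, by annotated class with the number tested in brackets. Blue points were called lower, red points higher and open points were not called. The R2R3-type row holds 35 of the 83 genes, with 17 of the 24 blue points and 1 of the 6 red points.

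The largest decreases belonged to R2R3-type genes. The symbol MYB15, in Arabidopsis a regulator of cold responses and of defence-related lignin, is carried by 3 tomato rows, all tested. In the order given below, they are described as Myb4-like, Myb4 and R2R3MYB transcription factor 14. Solyc09g090130.3 stood at 4.60, 11.5 and 11.04 CPM in WT and at 0.465, 0.357 and 0.445 CPM in JMJ6-OE. Every JMJ6-OE library was far below every WT library. Its log2 fold change was -4.42 ± 0.42 (adjusted p = 5.2e-04), a 21.4-fold decrease. Solyc03g005570.3 stood at 2.67, 5.59 and 9.55 CPM in WT and at 0.186, 0.594 and 0.297 CPM in JMJ6-OE, again without overlap (-4.02 ± 0.61, adjusted p = 0.0034). The remaining row, Solyc06g053610.3, was at 0.947 to 1.42 CPM in WT and at 0 to 0.775 CPM in JMJ6-OE. Its groups did not overlap, but it did not pass the test (log2 fold change -1.39 ± 0.84, adjusted p = 0.24).

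A gene with the symbol MYB14 (Solyc03g093890.3), whose grapevine namesake acts in stilbene synthesis, varied widely within WT, at 1.25, 8.39 and 21.1 CPM. It is described as R2R3MYB transcription factor 52. In JMJ6-OE it stood at 1.64, 0.951 and 0.890 CPM. WT replicate 1 lay inside the JMJ6-OE range, and the gene was just outside the threshold (log2 fold change -3.14 ± 0.97, adjusted p = 0.051). It was called with RLE scaling (0.049), with upper-quartile scaling (0.045), with the stricter filter (0.048), by DESeq2 (0.0071) and without WT replicate 1 (0.0059), but not by limma-voom (0.19), with the block (0.17), with no filter (0.080) or without any other library (up to 0.155).

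Neighbouring genes on chromosome 12 fell together. Solyc12g099120.2 and Solyc12g099130.2, both with the symbol MYB78 and described as abscisic acid (ABA)-induced, and Solyc12g099140.2, with the symbol MYB108, occupy consecutive positions in the table's gene order. MYB108 is known in Arabidopsis for jasmonate-dependent stamen maturation. Solyc12g099120.2 stood at 4.26, 3.18 and 4.22 CPM in WT and at 0.744, 0.149 and 0.185 CPM in JMJ6-OE, far apart (log2 difference -3.41 ± 0.56, adjusted p = 0.0042). Solyc12g099130.2 was the most abundant of these neighbours, at 17.9, 22.9 and 20.4 CPM in WT and 7.97, 3.30 and 2.60 CPM in JMJ6-OE (-2.14 ± 0.41, adjusted p = 0.0098). In both, JMJ6-OE replicate 1 was the highest of its group and still below every WT library. Solyc12g099140.2 stood at 6.97, 18.1 and 10.1 CPM in WT and 2.05, 4.61 and 3.23 CPM in JMJ6-OE (-1.83 ± 0.43, adjusted p = 0.018), and did not pass when JMJ6-OE replicate 3 was left out (0.0675). If their sequences are alike, reads may have been divided among them in the counting, and their separate values are then uncertain. Of the 33 pairs of successive MYB rows at most 2 table positions apart, 3 had both genes tested, 2 of them in this cluster.

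A further MYB78 row on chromosome 1 (Solyc01g057910.3) went from 11.3 ± 1.55 to 7.79 ± 1.32 CPM (mean ± SD, n = 3), with a log2 fold change of -0.54 ± 0.17 and an adjusted p of 0.047. That call was lost without WT replicate 1 or 2 or JMJ6-OE replicate 1 or 2 (at most 0.157, for JMJ6-OE replicate 2), with the replicate number as a block (0.0952) and with no filter (0.0532). The fourth MYB78 row (Solyc05g053330.3), chosen here after its values were seen, had too few counts for the filter and went the other way. It had 0 counts in each WT library and 6, 25 and 22 counts in the JMJ6-OE libraries, at least 20.6-fold higher against a floor of 3 counts over the WT group. With no filter on low counts it was called (adjusted p = 0.011).

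**Figure D3:**
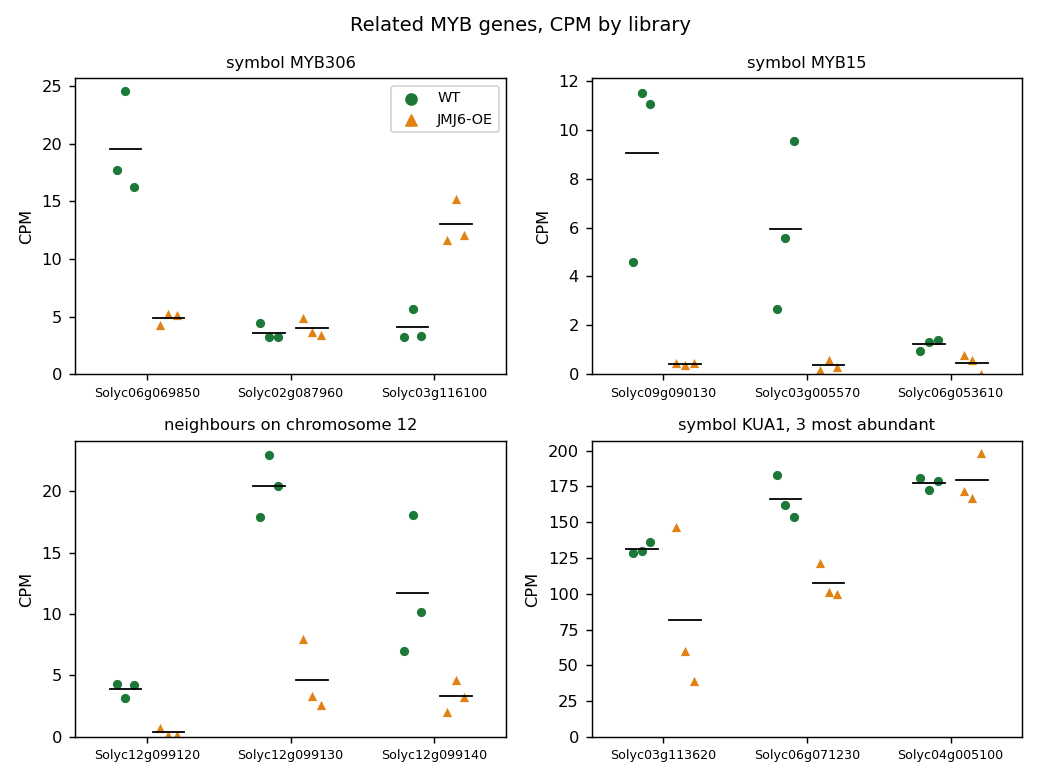
CPM by library (vertical axes, linear) for related MYB genes, WT as green circles and JMJ6-OE as orange triangles, with a black line at each mean of 3 libraries. The panels show the 3 MYB306 rows, the 3 MYB15 rows, the neighbours on chromosome 12 and the 3 most abundant KUA1 rows. The MYB306 rows went in opposite directions, and in the KUA1 row Solyc03g113620.3 JMJ6-OE replicate 1 stands at 146.4 CPM, above all WT libraries.

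Rows with the symbol MYB306, named after a snapdragon gene, moved in opposite directions. Solyc06g069850.3 stood at 17.7, 24.6 and 16.2 CPM in WT and 4.28, 5.23 and 5.15 CPM in JMJ6-OE, a 3.99-fold decrease (log2 -1.997 ± 0.19, adjusted p = 5.4e-04). Solyc03g116100.3 stood at 3.21, 5.69 and 3.27 CPM in WT and 11.7, 15.2 and 12.1 CPM in JMJ6-OE, a 3.20-fold increase (log2 1.68 ± 0.25, adjusted p = 0.0030). WT replicate 2 was the highest WT library in both genes, and the groups did not overlap in either. Both calls held whichever of the 6 libraries was left out. Among the 83 genes that passed the filter on low counts, the latter was the lone R2R3-type gene called higher and the only MYB gene called with an increase of at least 2-fold. The remaining row, Solyc02g087960.3, was at 3.21 to 4.396 CPM in WT and 3.41 to 4.87 CPM in JMJ6-OE and was not called (0.14 ± 0.23, adjusted p = 0.66).

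Genes named after snapdragon MYB308 and MYB330, which repress phenolic synthesis when overexpressed in tobacco, were both lower. The MYB308 gene (Solyc01g111500.3) stood at 4.02, 6.56 and 6.38 CPM in WT and at 0.961, 2.17 and 1.93 CPM in JMJ6-OE (-1.75 ± 0.35, adjusted p = 0.0085). The MYB330 gene (Solyc06g065100.3) showed a smaller and tighter difference, from 27.2 ± 0.391 to 16.2 ± 2.12 CPM (-0.75 ± 0.12, adjusted p = 0.0035). Groups did not overlap in either gene. MYB20 (Solyc11g011050.2), in Arabidopsis an activator of lignin and phenylalanine synthesis, was also lower. It had 21, 52 and 31 counts in WT and 3, 0 and 0 counts in JMJ6-OE, so that WT was 29.7-fold higher, with a 95% exact counting interval from 9.89 to 146. It was called by edgeR (adjusted p = 0.0061), and by its mean level of under 1 CPM it is named here after its values were seen.

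The remaining R2R3-type genes named by the rule were called less firmly. MYB61 (Solyc01g102340.3, described as MYB35) stood at 18.9, 19.6 and 18.1 CPM in WT and 10.8, 5.71 and 4.26 CPM in JMJ6-OE (-1.45 ± 0.32, adjusted p = 0.014). The WT libraries were nearly equal while JMJ6-OE replicate 1 stood well above its group. The call was lost without WT replicate 2 (0.0505) and without JMJ6-OE replicate 2 (0.0605). MYB77 (Solyc04g079360.1), which in Arabidopsis takes part in auxin responses of roots, went from 10.6 ± 3.88 to 4.37 ± 1.28 CPM (-1.29 ± 0.32, adjusted p = 0.021), not called without WT replicate 2 (0.058) or JMJ6-OE replicate 2 (0.075). MYB62 (Solyc05g009230.2, described as MYB108), whose Arabidopsis namesake responds to phosphate starvation, went from 2.52 ± 0.0364 to 1.30 ± 0.379 CPM (-0.95 ± 0.28, adjusted p = 0.034). That call held only without JMJ6-OE replicate 2 among the fits that left out a library (otherwise adjusted p up to 0.093) and was lost with the replicate number as a block (0.059). MYB48 (Solyc11g073120.2) went from 20.2 ± 6.32 to 10.8 ± 1.56 CPM (-0.91 ± 0.24, adjusted p = 0.024), called only without WT replicate 1 among those fits (otherwise up to 0.068).

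The MYB86 gene (Solyc06g071690.3) stood at 3.14, 4.71 and 3.30 CPM in WT and at 3.04, 1.19 and 1.19 CPM in JMJ6-OE and was not called (-1.04 ± 0.41, adjusted p = 0.089). Without JMJ6-OE replicate 1, which lay just under the WT range, it was (-1.64, adjusted p = 0.0054). GAMyb-like1 (GAM1, Solyc01g009070.3), of the family that carries gibberellin signals in cereal grains and anthers, fell from 40.3 ± 1.42 to 26.1 ± 3.35 CPM (-0.62 ± 0.11, adjusted p = 0.0054). That call held in each fit that left out a library. Calls also went to DUO1 (Solyc01g090530.2) and MYB17 (Solyc01g094360.3), with log2 fold changes of -1.69 ± 0.53 and -0.73 ± 0.21. The DUO1 call, on 2 to 15 counts per library, was lost in all 5 fits without a library in which it could be tested, with no filter (adjusted p = 0.105), with the block (0.10) and by DESeq2 (0.12). The MYB17 call was lost without WT replicate 2 or 3 and without JMJ6-OE replicate 2 or 3 (up to 0.10) and with the block (0.071).

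Per transcript length, the most abundant MYB gene was the R2R3-type MYB73 (Solyc04g078420.1), of the stress-linked MYB44 group. Its deposited FPKM (fragments scaled to transcript length and library size) averaged 147 ± 12 in WT and 118.8 ± 13.8 in JMJ6-OE (mean ± SD, n = 3). In CPM it stood at 139.2, 143.7 and 124.6 in WT and 132.1, 122.6 and 119.7 in JMJ6-OE. The groups overlapped and it missed the threshold (log2 difference -0.12 ± 0.090, adjusted p = 0.33). Next in mean FPKM over all libraries, at 58.7, 53.8 and 49.3, came 3 genes of the MYB1R1 type with the symbol KUA1, in Arabidopsis a regulator of leaf cell expansion. They were followed by a myb-like protein X gene (Solyc01g106680.3) at 43.1 and HHO6 at 37.3. These 6 genes held 34.6% to 41.1% of the summed MYB level in CPM.

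The abundant KUA1 rows did not share a pattern. Solyc06g071230.3 stood at 183, 162 and 153.7 CPM in WT and 121.6, 101.5 and 100.1 CPM in JMJ6-OE, without overlap (-0.63 ± 0.11, adjusted p = 0.0058). Solyc04g005100.3 stood at 180.6, 172.9 and 178.6 CPM in WT and 171.9, 167.1 and 198.7 CPM in JMJ6-OE, with a log2 fold change of 0.015 ± 0.095 (adjusted p = 0.92). Solyc03g113620.3 stood at 128.4, 129.7 and 136.2 CPM in WT and at 146.4, 60.0 and 39.2 CPM in JMJ6-OE. There JMJ6-OE replicate 1 exceeded every WT library and the other JMJ6-OE libraries lay below all of them. It was not called with all libraries (-0.68 ± 0.47, adjusted p = 0.30) and was called without JMJ6-OE replicate 1 (-1.40, adjusted p = 0.0020).

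Among the less abundant genes of the MYB1R1 type, a further KUA1 row (Solyc08g078340.3) fell from 33.3 ± 1.69 to 19.6 ± 1.77 CPM (-0.77 ± 0.10, adjusted p = 0.0019). MYBS3 (Solyc12g044610.2), named after a rice factor that represses amylase genes, stood at 15.9, 12.7 and 12.4 CPM in WT and 8.03, 4.93 and 4.37 CPM in JMJ6-OE (-1.24 ± 0.25, adjusted p = 0.0082). Its groups did not overlap. FSB1 (fruit SANT/MYB Binding protein1, Solyc01g011350.3), a tomato partner of the small MYB protein FSM1 that limits cell expansion in young fruit, was lower as well. It stood at 132.7, 115 and 119.3 CPM in WT and at 94.9, 84.4 and 87.2 CPM in JMJ6-OE (-0.46 ± 0.091, adjusted p = 0.0081). Each JMJ6-OE library was below each WT library. The row described as a SANT/MYB domain protein (Solyc10g052470.1, symbol RL1) had 3 counts in 1 WT library, 2 in 1 JMJ6-OE library and 0 in the others.

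**Figure D4:**
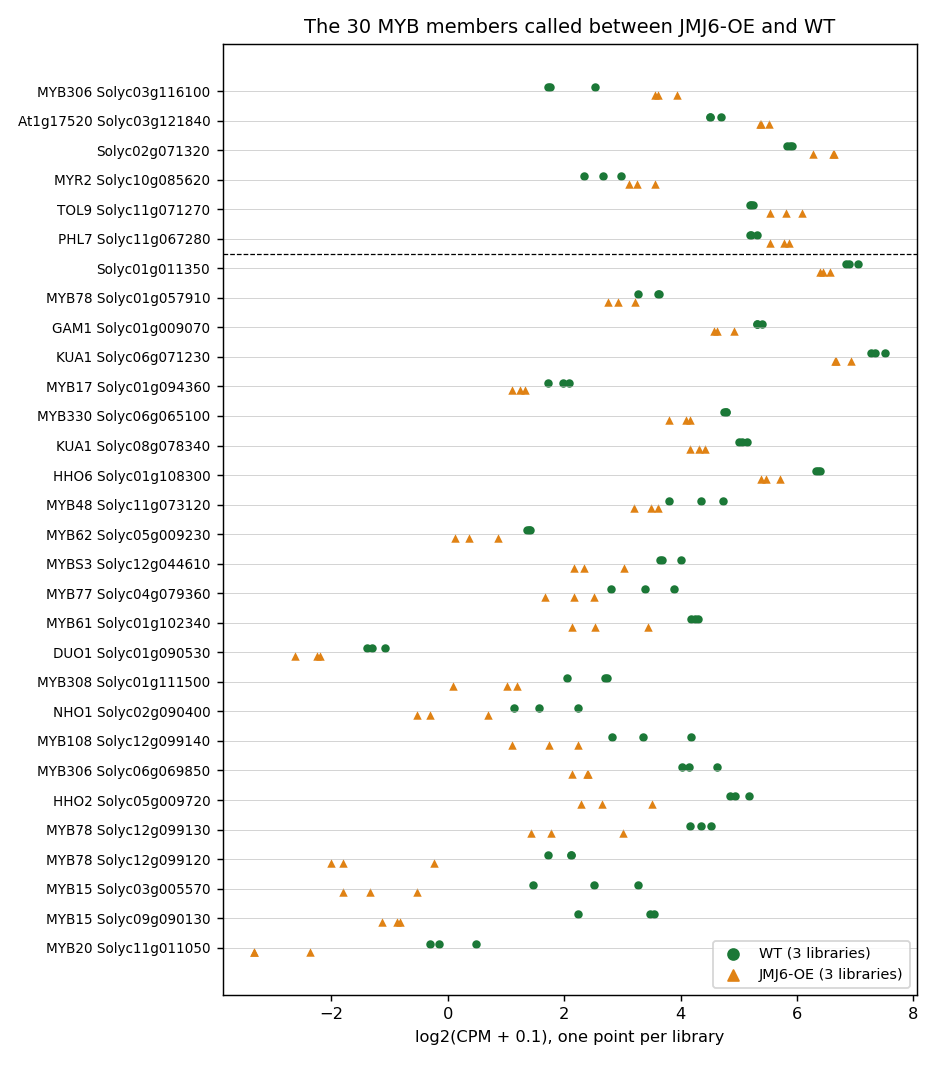
Level of the 30 called MYB genes in every library, as log2(CPM + 0.1) on the horizontal axis, with WT as green circles and JMJ6-OE as orange triangles. Genes are ordered by log2 fold change, the 6 called higher above the dashed line and the 24 called lower below it. The groups do not overlap in any of the 30 genes, which selection by their call in these same libraries favours. Of all tested genes, 51.4% did not overlap. The spread among JMJ6-OE libraries is wide for several genes, such as MYB61.

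Of the 13 tested genes of the GARP/MYB-CC group, 23.1% were called lower and 15.4% higher, beside 16.8% and 17.5% of all tested genes. HHO2 (Solyc05g009720.3), whose Arabidopsis namesake belongs to the repressors of nitrate-responsive genes, stood at 30.4, 35.9 and 28.9 CPM in WT and 11.3, 6.15 and 4.78 CPM in JMJ6-OE (-2.09 ± 0.31, adjusted p = 0.0037). HHO6 (Solyc01g108300.3) stood at 83.8, 81.7 and 80.0 CPM in WT and 52.1, 44.0 and 41.7 CPM in JMJ6-OE (-0.83 ± 0.10, adjusted p = 0.0013). Both were highest in JMJ6-OE replicate 1 within their group and did not overlap with WT. NHO1 (Solyc02g090400.3) went from 3.19 ± 1.29 to 0.941 ± 0.502 CPM (-1.75 ± 0.45, adjusted p = 0.022). Its call was lost without WT replicate 2 (adjusted p = 0.078), JMJ6-OE replicate 1 (0.052) or JMJ6-OE replicate 3 (0.067).

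In the upward direction, the MYB-CC gene PHL7 (Solyc11g067280.2), a relative of the phosphate starvation regulator PHR1, stood at 37.0, 39.8 and 36.2 CPM in WT and 46.2, 54.7 and 57.9 CPM in JMJ6-OE (0.49 ± 0.11, adjusted p = 0.012). The groups did not overlap, but the gene did not pass when JMJ6-OE replicate 2 was left out (0.0531). MYR2 (Solyc10g085620.2) went from 6.33 ± 1.40 to 9.88 ± 1.64 CPM (0.64 ± 0.21, adjusted p = 0.048). It was not called without WT replicate 1 (0.13), WT replicate 3 (0.15), JMJ6-OE replicate 2 (0.16) or JMJ6-OE replicate 3 (0.088), nor with RLE scaling (0.050), upper-quartile scaling (0.072) or no filter (0.052). The other MYR2 row (Solyc10g083340.2) went the other way, at 1.56, 1.45 and 0.875 CPM in WT and 0.527, 0.684 and 0.667 CPM in JMJ6-OE. Its groups did not overlap, but it did not pass the test (log2 fold change -1.04 ± 0.35, adjusted p = 0.055). A second PHL7 row (Solyc11g022470.2) was not called (log2 difference 0.034 ± 0.11, adjusted p = 0.83).

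A gene for a single myb histone (Solyc03g121840.3), of the family that binds telomeric repeats and whose Arabidopsis members recruit the Polycomb complex that methylates H3K27, was higher. It stood at 25.9, 22.7 and 22.5 CPM in WT and at 41.1, 41.6 and 46.0 CPM in JMJ6-OE, with tight groups that did not overlap (0.86 ± 0.098, adjusted p = 0.0010). The call held in each fit that left out a library. The other gene of this family (SMH6, Solyc02g064630.3) spread from 25.1 to 46.5 CPM within JMJ6-OE and was not called (-0.061 ± 0.22, adjusted p = 0.86). Of the rows that are MYB genes in name only, TOL9 (Solyc11g071270.2), a ubiquitin-binding protein of endosomal sorting, rose from 37.0 ± 0.896 to 56.6 ± 10.9 CPM (0.61 ± 0.14, adjusted p = 0.014). A myb-like protein X gene (Solyc02g071320.3), for which no function is given, rose from 58.4 ± 1.70 to 91.8 ± 12.3 CPM (0.65 ± 0.11, adjusted p = 0.0046). The other abundant gene of that name, Solyc01g106680.3, was at 84.9 to 96.1 CPM in WT and 83.3 to 95.9 CPM in JMJ6-OE, with no call (log2 difference -0.028 ± 0.093, adjusted p = 0.84).

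Activators of anthocyanin synthesis were near the detection limit. The gene described as AN2 (Solyc10g086250.2) had 0, 0 and 18 counts in WT and 3, 8 and 0 in JMJ6-OE, and the gene described as MYB113-like (Solyc10g086290.2) had 0, 9 and 9 in WT and 0, 12 and 9 in JMJ6-OE. The MYB113 row that lies between them in the table (Solyc10g086270.2) was at 0 in every library. For these genes no difference was detectable at this depth, at which 3 counts are 0.0752 to 0.111 CPM. Of the 30 genes with counts too low to test, 11 had counts only in WT and 7 only in JMJ6-OE. Those only in WT had at most 12 counts in all, as in a MYB48 row (Solyc06g075660.3) with 6, 0 and 6. The same split over all 5191 rows with counts too low to test was not counted, so no direction is read from it. Solyc06g083900.3 (MYB13) had 0 counts in all WT libraries and 6, 24 and 0 in JMJ6-OE. Solyc12g049300.2 carries the name of the maize anthocyanin regulator C1 but is described as MYB308-like, after the snapdragon repressor of phenolic synthesis named above. It is therefore not taken here as an activator of anthocyanin synthesis. Its counts were 0 in each WT library and 4, 7 and 4 in JMJ6-OE. These genes were chosen after their values were seen. Tested with no filter, only Solyc05g053330.3 and Solyc12g049300.2 (adjusted p = 0.044) were called among the 30 MYB genes with counts too low for the main test.

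Genes with which MYB factors are known to work were read from the same fit. In the flavonoid pathway, R2R3 MYB factors act with bHLH and WD40 proteins on genes of flavonoid enzymes. Of 45 rows described as such partners or enzymes, 16 were tested, of which 7 were higher and 2 lower, with a median log2 fold change of 0.44. That is 56.2% called, beside 34.3% of all tested genes. The strongest by adjusted p were chalcone synthase CHS1B (Solyc09g091510.3, 7.44 ± 0.31), CHI3 (Solyc05g052240.3, 4.71 ± 0.26), described as a chalcone isomerase, and the flavonol synthase gene FL (Solyc11g013110.2, 3.74 ± 0.23). None of the 3 tested TTG1-type WD40 genes was called, with log2 fold changes of -0.23 ± 0.098, 0.075 ± 0.25 and 0.57 ± 0.38. MYB12, left out of the MYB genes by the selection, stood at 3.91 to 4.66 CPM in WT and 21.2 to 35.2 CPM in JMJ6-OE.

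MYB-CC factors of the PHR1 type act on genes of phosphate supply. Of 71 rows for SPX proteins, phosphate transporters, purple acid phosphatases and PHR1-type regulators, 36 were tested. Of these, 10 were higher (27.8%, beside 17.5% of all tested genes) and 6 lower (16.7%, beside 16.8%), with a median log2 fold change of -0.020. The strongest by adjusted p were all higher, a purple acid phosphatase gene PAP18 (Solyc07g064500.3, 0.72 ± 0.099) and a pair of genes for SPX membrane proteins, Solyc08g007800.3 (1.29 ± 0.20) and Solyc08g080200.3 (0.46 ± 0.072). Of the PHR1-type regulators themselves, which the search for "myb" does not find, Solyc09g072830.3 was higher (0.56 ± 0.11, adjusted p = 0.0069) and Solyc06g008200.3 was not called (-0.13 ± 0.10, adjusted p = 0.36).

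Of the 30 called MYB genes, 19 were called in every fit that left out a library, 15 of those lower and 4 higher. In the authors' deposited table, 33 of the 221 MYB genes had a false discovery rate under 0.05, 24 lower and 9 higher. Of all 36224 rows, 7673 did, 3837 lower and 3836 higher. There, 29 of the 30 genes called here had the same direction and passed. Both tests used the same libraries, so this overlap is not independent support.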

How the data were processed

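RNA from pericarp was sequenced by the submitters. HISAT2 was used, per the submitters' processing notes. The counter, build, annotation, strand setting and version were not given in the sources used here. Per the file headers, the deposited table holds the authors' raw count and FPKM per gene and library, their log2 fold of mean FPKM, and their p-value and false discovery rate from an unnamed test.

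Counts were used as deposited, with groups from the sample titles. Genes were kept by filterByExpr (minimum count 10), scaled by TMM and tested for genotype with edgeR 4.0.16 (robust quasi-likelihood F-test, R 4.3.3), adjusted by Benjamini-Hochberg over all 20143 tested genes. The functions were tested on simulated counts. CPM uses TMM-scaled library sizes, and floors and intervals cover counting error only. Standard errors came from the log2 fold change and F (its size over the square root of F). Replicate pairs differed by 19.2 to 71.8 times sampling noise, so none is a copy. FPKM served only to rank levels.

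The genes, classes and lists were chosen with earlier results of these data known. Rows of A20/AN1 zinc finger proteins were removed from the flavonoid list. Named by rule were called genes without overlap and with a mean of at least 1 CPM (up to 12 largest increases, 14 largest decreases), the 6 highest in FPKM, the 2 largest changes not called, and up to 3 called genes per partner list by adjusted p. The other MYB genes given with values were chosen after their values were seen. As alternatives, counts were scaled by RLE or by upper quartiles, tested with limma-voom (limma 3.58.1) or DESeq2 1.42.0, filtered at 1 count in all or at 1 CPM in 3 libraries, blocked by replicate number, or refitted without single libraries. Classes by protein sequence were not used here. Figures were drawn with matplotlib 3.10.9.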

Additional observations from a re-analysis of the deposited data

How the results depend on the processing

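Across scaling, test and filter alternatives, 5 to 7 MYB genes were higher and 22 to 26 lower, with 72 to 113 of them tested. These fits called 26% to 38.4% of all tested genes. Leaving out single libraries gave 4 to 9 higher and 16 to 24 lower (16 without WT replicate 2), and 2027 to 4169 higher and 2046 to 3962 lower genes in all. The median log2 fold change of the MYB genes was -0.26 with the filter of 1 CPM in 3 libraries and -0.45 to -0.26 without single libraries. Same-numbered libraries did not deviate together (correlations 0.064, 0.032 and -0.060 for numbers 1, 2 and 3). With the replicate number as a block, 6 MYB genes were higher and 21 lower, 26 of them the genes called without it. That fit called 29.7% of all tested genes, beside 34.3% in the main fit. Without single libraries 18 of the 83 tested MYB genes took both signs, and 0 of these 18 were called with all libraries. Among them, Solyc04g005100.3 was at -0.050 with upper-quartile scaling and from -0.064 to 0.066 without single libraries, and Solyc01g106680.3 was at -0.095 to 0.012 without single libraries. The cause was not tested. Across all settings, 7 to 11 genes of the flavonoid list and 11 to 19 of the phosphate list were called. The share called of all tested genes moved as well, from 19.9% without JMJ6-OE replicate 2 to 39.5% without JMJ6-OE replicate 1. At this depth 138 MYB genes could not be tested.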
